A study of Mus musculus with 69 samples.

Results

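The ovulatory surge of luteinizing hormone (LH) switches on a short program of genes in the preovulatory follicle, and 10 of them were followed here in mice that carry mutated microRNA sites in Zeb1. The genes were taken by name from the tables: Ptgs2, Areg, Ereg, Btc, Has2, Tnfaip6, Ptx3, Sult1e1, Edn2 and Cebpb. All 10 were found in every table, among 55401 genes listed for the ovary. The mice were C57BL/6J females of 3 genotypes. WT females had the normal Zeb1 gene, 200H females had point mutations in the miR-200a/b sites of the Zeb1 3′ UTR on 1 allele, and 200M females had them on both, in every cell of the body. They came from lines founded by separate embryonic stem cell clones, and which line each female belonged to was not used here. The young cohort held virgin females of 8 to 12 weeks and the older cohort held females of 28 to 36 weeks that had gone through a breeding trial. Every female was taken at the first proestrus seen by vaginal cytology, and the clock hour, and therefore the distance to the LH surge, is not given in the sources used here. RNA sequencing of the ovary gave 4 libraries per genotype and cohort, each from a different mouse. Pituitary and hypothalamus gave 3 or 4 libraries per group.

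LH acts on the mural granulosa cells of the large follicle through its receptor Lhcgr and cyclic AMP. These cells then release EGF-like ligands that carry the signal to the cumulus cells around the oocyte. The cumulus cells make prostaglandins and a hyaluronan matrix, expand, and the follicle wall opens under the action of proteases and smooth muscle contraction. Most genes of this program are on for hours only. In whole ovary RNA, fewer cells of a type and less RNA per cell cannot be told apart.

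Young ovary libraries held 6337205 to 12896366 counts, and older ones 7985206 to 14655095. Levels are given as CPM, the count of a gene divided by the total count of its library and multiplied by 1000000, and at these depths 3 counts corresponded to 0.205 to 0.473 CPM. Mitochondrial genes took 7.55% to 10.5% of the counts in young and 1.48% to 4.41% in older libraries. The young cohort was sequenced from total RNA depleted of ribosomal RNA, with strand kept, and the older from poly(A) RNA, with strand lost, so cohort, age, breeding history and library chemistry cannot be told apart. Granulosa, oocyte, theca and luteal markers were detected in all 24 ovary libraries. Genes of the oviduct epithelium were also present at very uneven levels. In older ovaries Foxj1, a factor of ciliated cells, lay above 20 CPM in 4 libraries (WT replicate 1, 200H replicates 3 and 4, 200M replicate 3) and at 6.81 CPM or less in the others. Zeb1 itself did not pass the test in the ovary in either cohort (log2 fold change of 200M against WT -0.06 ± 0.06 in young and -0.22 ± 0.16 in older ovary, ± SE, adjusted p = 0.722 and 0.515). In 200M pituitary Zeb1 rose by 0.52 ± 0.06 in young and by 0.55 ± 0.09 in older mice (adjusted p = 2.39e-05 and 0.000833), and Lhb, the beta subunit of LH, fell by 1.68 ± 0.14 and by 2.33 ± 0.25 on the log2 scale (adjusted p = 1.31e-06 and 4.51e-05 by edgeR).

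Of the 10 surge genes, 1 was called changed in the mutant ovary. Tnfaip6 fell 7.53-fold in older 200M ovary, while the other tested members did not pass in any pair of genotypes in either cohort. Genes were tested with edgeR's quasi-likelihood test over all genes that passed a filter on low counts, and called at a Benjamini-Hochberg adjusted p under 0.05. In the young ovary 7 of 10 members passed the filter. None of these was called in 200M against WT, where 2.58% of all 19250 genes tested were called. An unadjusted p under 0.05 was reached by 1 member and by 3114 of all genes. None was called in young 200H against WT either, beside 0.0051% of all genes, or in young 200M against 200H, beside 0% of all genes. In these comparisons 1 and 0 members had an unadjusted p under 0.05, beside 1384 of 19621 and 648 of 19259 genes. In the older ovary 5 members passed the filter for 200M against WT, and 1 was called beside 2.71% of all 17792 genes. For older 200H against WT 7 passed and 0 were called beside 0% of all genes. An unadjusted p under 0.05 was found for 2 members and for 1160 of 17605 genes. For older 200M against 200H 6 passed and 0 were called beside 1.61% of all genes. There 1 member and 2320 of 17855 genes had an unadjusted p under 0.05. DESeq2 also called 0 members in the 3 young comparisons and in older 200M against 200H. It called Tnfaip6 in older 200M against WT, beside 1320 of 19861 genes, and in older 200H against WT, beside 21 of 23809 genes. With 1 call among 5 tested members, the share in older 200M ovary is not readable against the background, and the result concerns Tnfaip6 alone. Among the members tested, the median log2 fold change for 200M against WT was -0.23 in young and 0.04 in older ovary, beside medians of 0.01 and 0.04 over all genes tested.

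**Figure D1:**
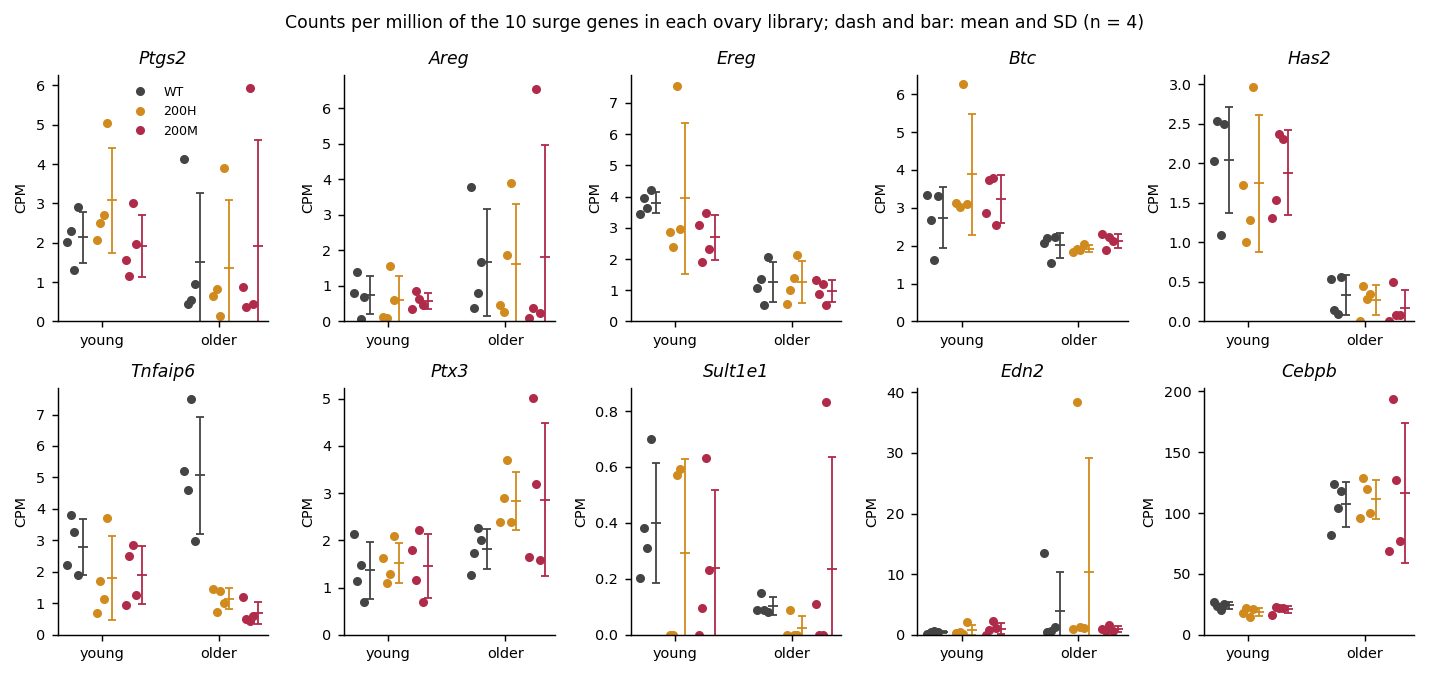
CPM (y axis, linear from 0) of each of the 10 genes in every ovary library, by cohort and genotype. Points are libraries, and the dash and bar beside them are the mean and SD of 4 libraries (bars reaching below 0 are clipped at the axis). In older ovary all 200H and 200M points of Tnfaip6 lie below the lowest WT point of 2.97 CPM, while Ptgs2, Areg and Edn2 are each set by 1 or a few high libraries.

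**Figure D2:**
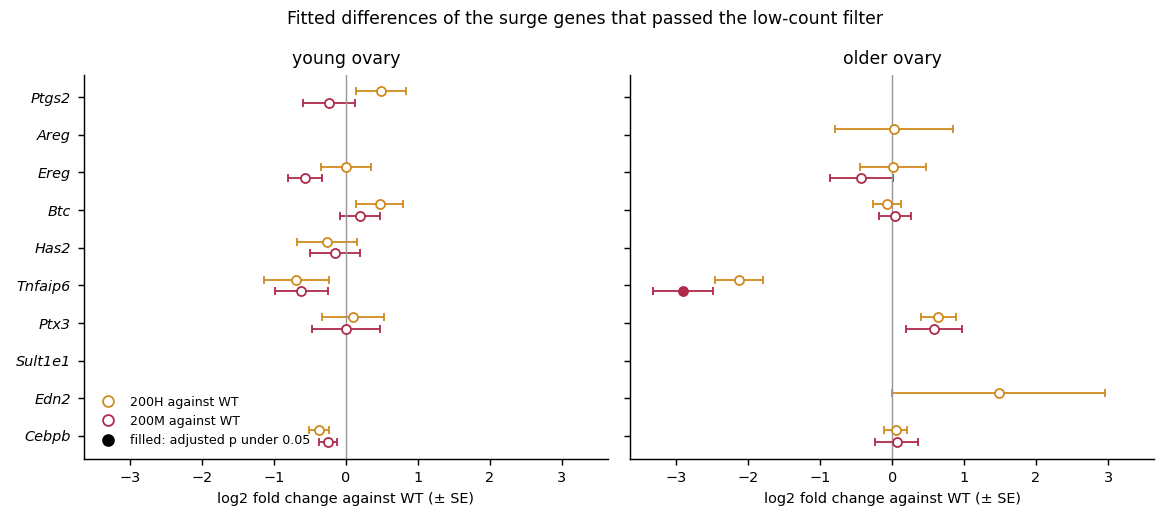
Log2 fold change against WT (x axis, ± SE) of the members that passed the low-count filter, in young and older ovary. Filled points have an adjusted p under 0.05: only Tnfaip6 in older 200M ovary, at -2.91, is filled, and members without a point were too low to be tested.

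In WT ovary the members spanned a wide range of levels. Per kilobase of exon, Cebpb, a transcription factor that LH induces through ERK signalling, stood at 16.0 ± 1.92 CPM per kb in young and 71.1 ± 12.3 in older WT ovary (SD, n = 4), above all other members in each library. Tnfaip6 followed, at 1.64 ± 0.518 CPM per kb in young and 2.96 ± 1.09 in older ovary, and its range overlapped that of the next gene in both cohorts. The remaining members had mean levels between 0.274 and 0.952 CPM per kb in young ovary, with each neighbour overlapping the next. In older ovary Edn2 came next on average at 2.69 ± 4.39 CPM per kb, with 1 library far above the others, and Has2 was lowest at 0.0791 ± 0.0588.

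Tnfaip6 (ENSMUSG00000053475, chr2:52038009-52056686, plus strand, GRCm38) encodes the secreted protein TSG-6, which transfers inter-alpha-inhibitor heavy chains to hyaluronan and so stabilizes the expanding cumulus matrix. In older WT ovary it had 58, 61, 83 and 37 counts, or 5.2, 4.6, 7.49 and 2.97 CPM. In older 200H ovary it had 16, 8, 20 and 15 counts, or 1.47, 0.723, 1.39 and 1.02 CPM. In older 200M ovary it had 11, 4, 5 and 8 counts, or 1.21, 0.501, 0.431 and 0.606 CPM. Every mutant library was below every WT library, and the ranges of 200H and 200M overlapped. Over all genes tested, 4.84% had all 200M libraries lower and 2.03% had all 200H libraries lower than WT in this cohort.

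The fitted log2 fold change of Tnfaip6 in older ovary was -2.91 ± 0.42 (SE) in 200M against WT, with an adjusted p of 0.0127 by edgeR. The call was lost without WT replicate 2 (adjusted p = 0.0508) and without 200M replicate 4 (0.0516), and it was kept without any of the other 6 libraries. In older 200H against WT the value was -2.13 ± 0.33, a 4.37-fold lower level, with an unadjusted p of 0.000127 and an adjusted p of 0.512 by edgeR. DESeq2 called it there with an adjusted p of 0.000221, beside 0.0882% of all genes called by that tool. With all libraries the difference between 200M and 200H was -0.79 ± 0.40 (adjusted p = 0.47).

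In young ovary Tnfaip6 had 22, 30, 42 and 19 counts in WT, which is 2.23, 3.81, 3.26 and 1.9 CPM. It had 0.692, 1.7, 1.14 and 3.71 CPM in 200H and 0.953, 2.49, 2.84 and 1.27 CPM in 200M. These groups overlapped, since 1 library of 200H and 2 of 200M lay inside the WT range. The fitted values were -0.69 ± 0.45 in 200H (adjusted p = 0.823) and -0.62 ± 0.37 in 200M (adjusted p = 0.455). The difference between the cohorts, tested as the interaction of genotype and cohort, was -2.31 ± 0.59, which edgeR did not call (adjusted p = 0.119) and DESeq2 did (0.0203). The interaction was called for 0.197% of all 21786 genes by edgeR and for 355 of 19391 genes by DESeq2. By edgeR it was called for none of the 9 members tested. Of these, 2 (Tnfaip6 and Edn2) had an unadjusted p under 0.05, as had 2619 of all genes.

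Part of a luteal marker list fell in the same older 200M ovaries. Of 6 luteal markers (Star, Cyp11a1, Hsd3b1, Ptgfr, Akr1c18 and Lhcgr) 3 were called lower and 0 higher, with summed levels of 5372 to 12469 CPM in 200M, 15557 to 23383 CPM in 200H and 12186 to 30246 CPM in WT. Akr1c18, which inactivates progesterone as the corpus luteum regresses, was at 660, 4533, 1397 and 395 CPM in older WT and at 6.36, 2.13, 3.79 and 4.09 CPM in older 200M. In older 200H it was at 2430, 4236, 1459 and 2124 CPM, within the WT range (0.53 ± 0.72, adjusted p = 0.87). In older 200H, where edgeR did not call Tnfaip6 (adjusted p = 0.512), its low levels were in libraries with Akr1c18 inside the WT range. In older 200M they were in libraries with little Akr1c18, and a link between these genes was not tested.

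In young 200M ovary 2 of these 6 luteal markers were called lower as well, Akr1c18 (-3.49 ± 0.65, adjusted p = 0.0152) and Cyp11a1 (-0.69 ± 0.13, adjusted p = 0.0185), while Tnfaip6 was not called. Akr1c18 in young libraries, in replicate order, was at 79.5, 106, 72.8 and 67.3 CPM in WT, 1.62, 12.1, 13.8 and 61.4 CPM in 200H, and 0.596, 24.4, 0.789 and 0.462 CPM in 200M. The young 200H library lowest in Akr1c18 was also lowest in Tnfaip6, and the highest was also highest. In young 200M replicates 1, 3 and 4 Akr1c18 lay near the 3-count limit of 0.347 to 0.473 CPM, so the order among them is not readable. Tnfaip6 was at 0.953, 2.84 and 1.27 CPM there, beside 2.49 CPM in replicate 2, where Akr1c18 was at 24.4 CPM. Single markers of other cell types were called in older 200M ovary as well. Of 6 macrophage markers 1 was called higher in older 200M ovary, the leukocyte gene Ptprc (1.44 ± 0.31, adjusted p = 0.0489), with summed levels of 422 to 821 CPM in 200M, 184 to 363 CPM in WT and 232 to 317 CPM in 200H, and no marker of the list was at 0. Of 2 theca markers Insl3 was called higher (1.60 ± 0.23, adjusted p = 0.012), at 22.2 to 40.1 CPM in 200M and 9.35 to 11.6 CPM in WT, while the summed level of both was 101 to 949 CPM in 200M, 477 to 1472 CPM in WT and 357 to 845 CPM in 200H. Of the 3 adipocyte markers 0 were called, with summed levels of 62.7 to 203 CPM in WT and 50 to 451 CPM in 200H. In 200M replicate 3 was at 1290 CPM and the other libraries were at 79.4 to 158 CPM, inside the WT range. Of 4 endothelial markers 0 were called, with summed levels of 226 to 337 CPM in 200M, 337 to 349 CPM in WT and 312 to 384 CPM in 200H. The part of luteal, macrophage, theca, adipocyte or endothelial content in the Tnfaip6 result was not tested. Without the 4 libraries high in oviduct genes the older 200M value of Tnfaip6 was -2.74 (adjusted p = 0.0223).

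**Figure D3:**
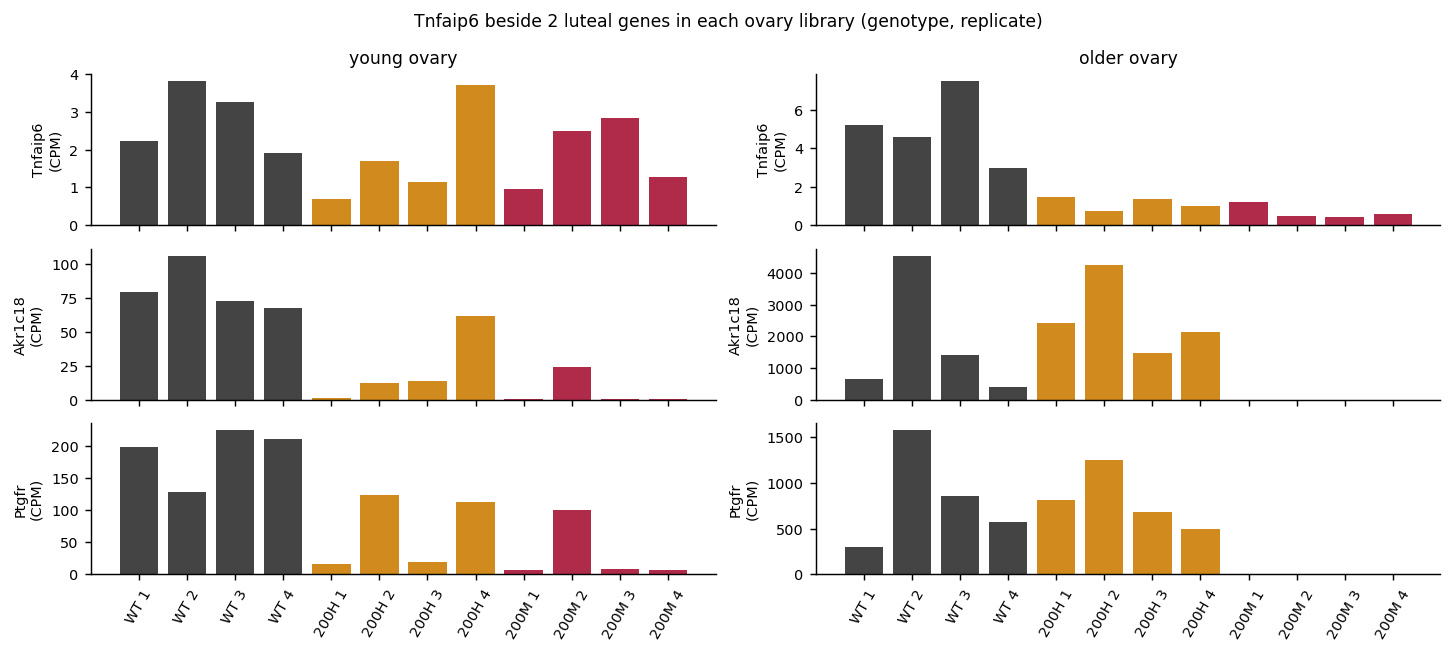
Level (CPM, linear y axes from 0) of Tnfaip6 and of the luteal genes Akr1c18 and Ptgfr in each ovary library, with young ovary on the left and older ovary on the right. Bars are single libraries colored by genotype: in older ovary the 200H libraries are low in Tnfaip6, at 0.723 to 1.47 CPM, and not in Akr1c18 or Ptgfr, and the 200M libraries are low in all 3 genes.

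Short stretches of 3 promoters are shown for the members that carried the patterns described here, Tnfaip6 as the called gene and Areg and Ptgs2 as a pair that was high in the same libraries. They are RefSeq sequences of GRCm38.p6 from 250 bases before to 50 after the annotated start, on the strand of the gene, with a motif in capitals. Such sequences were found for 8 of the 10 members.
Tnfaip6 (chr2:52037959-52037988, plus strand, AP-1 motif TGAGTCA): tgccaatgcaaaTGAGTCAgagggcttgct
Areg (chr5:91139527-91139556, plus strand, cyclic AMP response element TGACGTCA): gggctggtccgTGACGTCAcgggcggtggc
Ptgs2 (chr1:150099951-150099980, plus strand, C/EBP motif TTGCGCAA): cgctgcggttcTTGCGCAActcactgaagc
Searched on both strands, TGAGTCA was present in 5.2% of 32851 promoter sequences of the same length, TGACGTCA in 1.79% and TTGCGCAA in 0.183%, and each was present in 1 of the 8 member promoters. The core TGACG of the cyclic AMP response element, which overlaps the full element in Areg, was present in 20.8% of all promoters and in 4 of the 8 (Areg, Btc, Cebpb and Ptgs2). The E-box CAGGTG, of the kind bound by ZEB factors, was present in 20.2% of all promoters and in 3 of the 8 (Areg, Btc and Ptgs2). These matches describe letters and not binding.

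The 3 EGF-like ligands Areg, Ereg and Btc lie within a stretch of chromosome 5 (from Ereg at chr5:91074622-91093646 to Btc at chr5:91357261-91402994) and signal through the EGF receptor on cumulus cells. Areg had 1 to 11 counts in each young ovary library, which left it below the filter in that cohort. In older WT ovary it had 42, 5, 9 and 21 counts, in 200H 5, 3, 27 and 57, and in 200M 1, 3, 76 and 3. The highest library of each genotype was WT replicate 1 at 3.77 CPM, 200H replicate 4 at 3.89 CPM and 200M replicate 3 at 6.55 CPM (exact 95% interval 5.16 to 8.2 CPM for the last, counting error only), and the genotypes overlapped. Of the 6 ovary pairs, older 200H against WT was the only one in which Areg passed the filter, at 0.03 ± 0.82 (adjusted p = 0.993).

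Ereg, epiregulin, was the most even of the ligands in young WT ovary, at 3.45, 3.94, 3.64 and 4.2 CPM. In young 200M it was at 3.1, 1.91, 3.47 and 2.31 CPM, with 3 of 4 libraries below the WT range, and the fitted value was -0.57 ± 0.24 (unadjusted p = 0.0351, adjusted p = 0.265). The young 200H libraries held 2.88, 2.4, 7.56 and 2.97 CPM, where replicate 3 was alone above WT. Older levels were 0.541 to 2.08 CPM in WT, 0.551 to 2.12 CPM in 200H and 0.53 to 1.32 CPM in 200M, with a 200M value of -0.43 ± 0.44 (adjusted p = 0.641). The annotation places Gm19610 over Ereg on the opposite strand, and in the unstranded older libraries reads of the pair cannot be told apart.

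Btc, betacellulin, hardly varied in older ovary, where 12 libraries lay between 1.53 and 2.3 CPM and the 200M value was 0.04 ± 0.22 (adjusted p = 0.937). In young ovary it was at 1.63 to 3.35 CPM in WT, 2.54 to 3.79 CPM in 200M and 3.01 to 6.28 CPM in 200H. The highest of these was again 200H replicate 3, the library that was highest in Ereg and, at 1.57 CPM, in Areg.

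Ptgs2 (chr1:150100031-150108227), the inducible cyclooxygenase that starts prostaglandin synthesis in the cumulus, was at 1.32 to 2.9 CPM in young WT, 2.08 to 5.04 CPM in young 200H and 1.15 to 3 CPM in young 200M. These ranges overlapped, and the values against WT were 0.49 ± 0.35 in 200H (adjusted p = 0.849) and -0.23 ± 0.36 in 200M (adjusted p = 0.826). In older ovary it had 46, 6, 6 and 12 counts in WT, 7, 9, 2 and 57 in 200H, and 8, 3, 69 and 6 in 200M. The highest library of each genotype was the same one as for Areg, at 4.13, 3.89 and 5.94 CPM, and all other older libraries were at 0.139 to 0.962 CPM. Ptgs2 did not pass the filter in the older cohort.

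The libraries high in Areg and Ptgs2 were also the highest of their genotype in oviduct genes. Ovgp1, the oviduct glycoprotein, was at 612 CPM in older WT replicate 1, 2949 CPM in 200H replicate 4 and 2927 CPM in 200M replicate 3, and at 2.8 to 305 CPM in the other 9 older libraries. The summed level of the 6 oviduct and surface epithelium markers was 1009, 3532 and 3796 CPM in these 3 libraries and 63.6 to 539 CPM in the other 9. Pgr, the progesterone receptor, was at 18.4, 63.5 and 46.4 CPM in the 3 libraries and at 1.89 to 10.4 CPM in the others. Older 200H replicate 3, also above 20 CPM of Foxj1, had 298 CPM of Ovgp1, 1.88 CPM of Areg and 0.139 CPM of Ptgs2. The part of oviduct tissue in the Areg and Ptgs2 levels was not tested. In young ovary the markers were low in 200H replicate 1 and 200M replicate 4 (summed 47.4 and 65.3 CPM, against 252 to 635 CPM in the other 10), and Areg was at 0.115 and 0.462 CPM there, inside the range of 0.0775 to 1.57 CPM of the others.

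**Figure D4:**
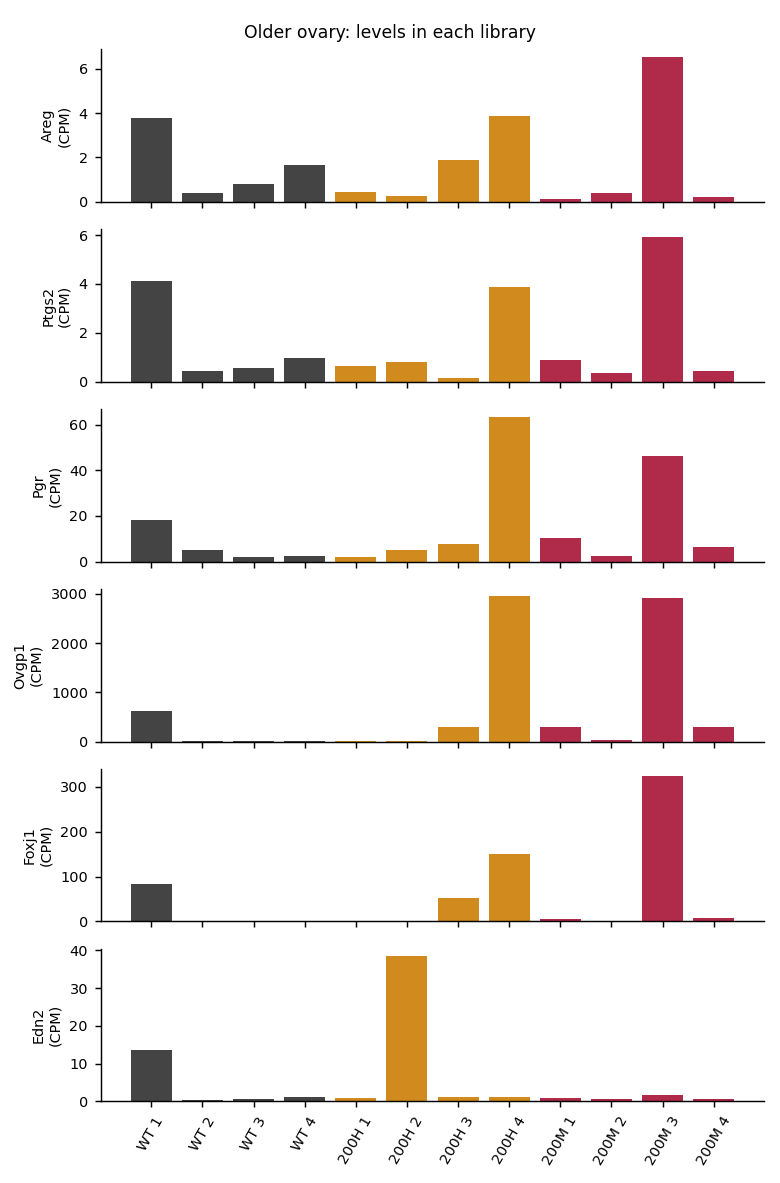
Level (CPM, linear y axes from 0) of Areg, Ptgs2, Pgr, the oviduct genes Ovgp1 and Foxj1, and Edn2 in each of the 12 older ovary libraries (bars are single libraries, labelled by genotype and replicate). Areg, Ptgs2 and Pgr are highest in WT 1, 200H 4 and 200M 3, the libraries in which Ovgp1 is also highest, while Edn2 is high in WT 1 and 200H 2.

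Among the genes of the cumulus matrix, Has2 (chr15:56665627-56694539, minus strand) makes the hyaluronan. It was at 1.09 to 2.54 CPM in young WT, 1 to 2.97 CPM in young 200H and 1.31 to 2.37 CPM in young 200M, with a 200M value of -0.15 ± 0.35 (adjusted p = 0.888). In older ovary it had at most 7 counts in a library and was not tested. Has2os is annotated on the opposite strand.

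Ptx3 (chr3:66219910-66225805), the pentraxin that crosslinks the modified hyaluronan, was at 0.693 to 2.21 CPM over all young libraries, and the young 200M value was 0.00 ± 0.47 (adjusted p = 0.999). In older ovary it was at 1.26, 1.73, 2.26 and 2 CPM in WT, at 2.39, 2.89, 3.69 and 2.39 CPM in 200H, and at 1.65, 5.01, 3.19 and 1.59 CPM in 200M. All 200H libraries were above all WT libraries, as for 1.92% of all genes tested, and 200M overlapped WT. The values were 0.64 ± 0.24 in 200H (unadjusted p = 0.0278, adjusted p = 0.748) and 0.58 ± 0.39 in 200M (adjusted p = 0.482). The matrix genes Tnfaip6 and Ptx3 thus had fitted values of opposite sign in older mutants. Ptx3 lies inside Veph1 on the opposite strand, and older reads carry no strand.

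Edn2 (chr4:120161206-120167360), endothelin 2, which contracts the follicle wall near rupture, was very low in young ovary, with 0 to 14 counts per library. In older ovary 2 libraries stood far above the rest. WT replicate 1 had 151 counts or 13.5 CPM (exact 95% interval 11.5 to 15.9), and 200H replicate 2 had 425 counts or 38.4 CPM (34.8 to 42.2). The other 6 WT and 200H libraries were at 0.377 to 1.25 CPM, and the libraries of 200M were at 0.878, 0.626, 1.64 and 0.606 CPM. No 200M library of either cohort exceeded 2.21 CPM. The value for older 200H against WT, 1.48 ± 1.48 (adjusted p = 0.84), turned to -1.80 without 200H replicate 2. Older 200M against 200H gave -3.55 ± 1.34 (unadjusted p = 0.0262, adjusted p = 0.293), which became -0.27 (adjusted p = 0.975) without 200H replicate 2, and against WT Edn2 did not pass the filter. Of the libraries high in Edn2, WT replicate 1 was also high in Areg, Ptgs2 and Ovgp1, whereas 200H replicate 2 was not, with 0.271 CPM of Areg, 0.813 CPM of Ptgs2 and 2.8 CPM of Ovgp1.

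Sult1e1 (chr5:87575969-87591594, minus strand), the sulfotransferase that inactivates estrogen, was near the limit of detection throughout and was tested in no comparison. It had 0 to 7 counts in the young libraries and 0 to 2 counts in 11 of the 12 older ones. The exception was 200M replicate 4 with 11 counts or 0.833 CPM. In the libraries with 0 counts, 3 young and 5 older ones, 3 counts would have been 0.301 to 0.357 CPM and 0.205 to 0.376 CPM.

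Cebpb (chr2:167688915-167690418) was measured with the greatest depth, at 105 to 269 counts in young and 630 to 1719 counts in older libraries. In young ovary it was at 27.3, 23.6, 20.4 and 24.9 CPM in WT, at 18, 22.2, 15 and 20.9 CPM in 200H, and at 16.6, 23.1, 21.9 and 21.8 CPM in 200M. The groups overlapped, with values of -0.37 ± 0.14 in 200H (unadjusted p = 0.0197, adjusted p = 0.591) and -0.25 ± 0.12 in 200M (adjusted p = 0.334). In older ovary the group means were 107 ± 18.5 CPM in WT, 111 ± 15.8 CPM in 200H and 117 ± 57.4 CPM in 200M (SD, n = 4). The 200M spread came from replicates 2 and 3, at 194 and 127 CPM, against 69.1 and 76.7 CPM, and the fitted value was 0.06 ± 0.30 (adjusted p = 0.936). Tmem189 is annotated over Cebpb on the opposite strand.

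Outside the ovary most members were too low to test. In the pituitary 1 to 3 of the 10 passed the filter in each comparison, and in the hypothalamus 1 to 4. Cebpb in young pituitary was the only member called. It was at 8.63, 9.94 and 8.57 CPM in WT, 12.9, 13.3, 14.2 and 12.9 CPM in 200H, and 13.2, 13.5, 10.9 and 12.7 CPM in 200M, so that both mutant groups lay above all WT libraries. All 200H libraries were higher for 21.6% and all 200M libraries for 25.3% of the genes tested in that tissue. The value was 0.43 ± 0.13 in 200H (adjusted p = 0.0468, beside 12.3% of all genes called) and 0.35 ± 0.14 in 200M (adjusted p = 0.0843, beside 21.5%). The 200H call was lost whichever of the 7 libraries was left out (adjusted p = 0.0539 to 0.152), by DESeq2 (0.123), by edgeR with RLE size factors (0.0511) and without the filter (0.127), and it was kept with the 3 genotypes in one fit (0.0304). In older pituitary Cebpb was at 10.3, 19.8, 13.5 and 13.9 CPM in WT, 19.3, 17.8, 21.5 and 16.9 CPM in 200H, and 11.7, 10.3 and 12.1 CPM in 200M. WT overlapped each mutant group, while all 200M libraries lay below all 200H libraries. The difference between 200M and 200H was not tested in pituitary, and no share over all genes is given for it. The values were 0.20 ± 0.19 in 200H (adjusted p = 0.543) and -0.55 ± 0.22 in 200M (adjusted p = 0.0944), where no member was called beside 12.2% and 21.4% of all genes, with 0 and 1 members at an unadjusted p under 0.05 and 0 called by DESeq2. Over all genes, 3914 of 14922 in 200H and 5089 of 14711 in 200M had an unadjusted p under 0.05. Cebpb in older 200M was called without WT replicate 1 (adjusted p = 0.0344) and without the low-count filter (0.0126).

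Ptgs2, named here after its values were seen, was uneven in pituitary. Young WT libraries were at 1.44, 6.24 and 0.394 CPM, 200H at 0.441, 1.18, 1.71 and 1.08 CPM, and 200M at 0.619, 1.11, 0.6 and 3.44 CPM. A single WT library was above all mutant ones and another was below them, and the values were -1.40 ± 0.67 in 200H and -1.15 ± 0.71 in 200M (adjusted p = 0.212 and 0.289).

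Tnfaip6 was higher in WT hypothalamus, at 10.9 ± 2.26 CPM in young and 8.17 ± 2.59 CPM in older mice (SD, n = 4), than in WT ovary, at 2.80 ± 0.886 and 5.06 ± 1.87 CPM, with ranges that overlapped in the older cohort only. In that cohort hypothalamus and ovary were counted with different programs and annotations, so their CPM values are not strictly alike. Tnfaip6 had 0 to 6 counts in any pituitary library. In older hypothalamus it was at 6.45 to 8.41 CPM in 200M, 8.2 to 10.2 CPM in 200H and 5.9 to 11.8 CPM in WT, with a 200M value of -0.11 ± 0.22 (adjusted p = 0.827). No member was called in hypothalamus. The shares of all genes called there were 0.02% and 0.0202% in young 200M and 200H, and 0.00622% and 0% in older 200M and 200H. In older 200H, 445 of 15910 genes had an unadjusted p under 0.05. Of the members tested, 1 (Ptgs2 in older 200H, 1.19 ± 0.38, adjusted p = 1) had an unadjusted p under 0.05, and DESeq2 called 0.

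Other genes of the pathway were read from 9 lists in 200M against WT. A further list of 5 immediate early response genes had 0 called in either cohort. Of the EGF receptor network 10 of 11 listed genes were tested in young ovary and 9 in older, and 1 was called lower in each cohort, Tgfa, another EGF-like ligand (-0.38 ± 0.09, adjusted p = 0.0344 in young, and -0.55 ± 0.12, adjusted p = 0.0494 in older ovary). Egfr, their receptor, did not pass in young (-0.13 ± 0.08, adjusted p = 0.444) or older ovary (-0.22 ± 0.19, adjusted p = 0.575). Of the cumulus matrix genes, a list that does not hold Tnfaip6, 9 of 11 were tested in each cohort. In young ovary 1 was called higher, the hyaluronan receptor Hmmr (0.71 ± 0.15, adjusted p = 0.0291), and in older ovary 0 were called. Vcan, the matrix proteoglycan versican, had values of -0.04 ± 0.10 (adjusted p = 0.882) and -0.72 ± 0.35 (adjusted p = 0.34). All 11 prostaglandin genes were tested, and 1, the transporter Slco2a1, was called higher in young ovary (0.38 ± 0.08, adjusted p = 0.0237) and 0 in older ovary.

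Of the progesterone receptor axis 8 of 10 genes were tested and 0 called in either cohort, including Pgr (-0.39 ± 0.23, adjusted p = 0.446 in young, where it was called without the low-count filter at 0.0161, and 1.16 ± 0.94, adjusted p = 0.553 in older ovary) and its target protease Adamts1 (-0.16 ± 0.11, adjusted p = 0.532, and -0.78 ± 0.23, adjusted p = 0.119). DESeq2 called Adamts1 in older ovary (adjusted p = 0.0211), at 57.1, 37.9, 31.5 and 61.5 CPM in 200M against 68.7 to 83.1 CPM in WT. Of the gonadotropin receptor and cyclic AMP genes 10 of 11 were tested and 1 called lower in each cohort, the phosphodiesterase Pde4d (-0.63 ± 0.13, adjusted p = 0.0218, and -1.80 ± 0.37, adjusted p = 0.0421). Lhcgr did not pass (-0.18 ± 0.22, adjusted p = 0.755, and -0.32 ± 0.56, adjusted p = 0.793). Of 7 protease and coagulation genes 3 were called in young ovary, Serpine2 higher (0.45 ± 0.07, adjusted p = 0.00974), and Adamts4 (-0.76 ± 0.14, adjusted p = 0.0122) and the metalloprotease inhibitor Timp1 (-0.97 ± 0.22, adjusted p = 0.0348) lower. Timp1 alone of that list was called in older ovary (-2.57 ± 0.50, adjusted p = 0.0324).

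Of the 10 early transcription factors Nr5a2 was called higher in young ovary (0.39 ± 0.10, adjusted p = 0.0473) and 0 in older ovary. Of 6 tested genes of estrogen synthesis and sulfation Esr2, estrogen receptor beta of granulosa cells, was called higher in young ovary (0.71 ± 0.10, adjusted p = 0.00499) and 0 in older ovary, and of the 6 endothelin genes 0 were called in either. The median log2 fold changes of the 9 lists lay between -0.18 and 0.04 in young and between -0.54 and 0.25 in older ovary. Of the 9 list genes called in young ovary, Esr2 and Serpine2 kept their call without any 1 of the 8 libraries. Adamts4 lost it without 200M replicate 1 (adjusted p = 0.0564), and the other 6 lost it without 4 to 6 of the libraries taken singly, with adjusted p up to 0.174. In older ovary Timp1, Pde4d and Tgfa each lost their call without 5 or 6 of the 8 libraries, with adjusted p up to 0.0957, 0.124 and 0.172.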

How the data were processed

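RNA of pituitary, hypothalamus and ovary was sequenced in 69 libraries of 18 groups, which were assigned from the sample labels. According to the methods of the study, the authors aligned reads with STAR 2.7.1a to mm10 (GRCm38) and counted them per gene with featureCounts against GENCODE annotation (ovary, and all young tissues) or with HTSeq 0.9.1 against Ensembl annotation (older pituitary and hypothalamus), by strand in the young cohort and without strand in the older. The authors deposited raw counts of genes in 18 tables, 1 for each pair of genotypes, of which 12 cover every library. Their columns of log2 fold changes and p-values (DESeq2 1.18 and 1.38.3 in the submitters' processing notes) were not used. 1 young WT pituitary column carries no usable replicate number.

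Symbols were matched through the deposited table that pairs them with gene IDs. Raw counts were tested with edgeR 4.0.16 (R 4.3.3): filterByExpr, TMM scaling, quasi-likelihood F test for each pair of genotypes within tissue and cohort, Benjamini-Hochberg adjustment over all genes tested, and an SE obtained as the size of the log2 fold change divided by the root of F. An interaction of genotype and cohort was tested in ovary. Alternatives were DESeq2 1.42.0, RLE size factors, no filter, a replicate block, a fit over the 3 genotypes, leaving out each library, and, chosen after seeing the data, leaving out the 4 older libraries with Foxj1 above 20 CPM. The procedures were checked on simulated data. Plain CPM uses the total counts of the library, and exact intervals at 95% and the 3-count limit cover counting error only. Libraries of an ovary group differed by a chi-square of at least 3.87 per degree of freedom, so none was a copy. Coordinates and exon lengths are from GENCODE M21.

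The members, the pathway and marker lists and the tests were chosen with earlier results of these data known, and Star and Cyp11a1 of the luteal list are also named by the study. Genes named were all 10 members in every ovary comparison, Lhcgr, Pgr, Adamts1, Egfr and Vcan, up to 15 called list genes of smallest p per cohort in ovary 200M against WT, members called outside the ovary, and Zeb1 and Lhb.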

Additional observations from a re-analysis of the deposited data

Results flagged for a closer look

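In 10 of 73 groups of 4 libraries checked, 1 library stood apart from the other 3 by Dixon's criterion at 95%. About 1 group in 20 meets it by chance where values follow a normal distribution. Low, uneven counts need not follow one, so the 10 groups are not read against that rate. Of these, 5 were high values of Areg, Ptgs2 and Edn2 in older ovary. Ptgs2 was at 4.13 CPM in WT replicate 1 (others 0.452 to 0.962) and at 5.94 CPM in 200M replicate 3 (others 0.376 to 0.878). Areg was at 6.55 CPM in 200M replicate 3 (others 0.11 to 0.376). Edn2 was at 13.5 CPM in WT replicate 1 (others 0.377 to 1.2) and at 38.4 CPM in 200H replicate 2 (others 0.918 to 1.25). The values of Ptgs2, Areg and, in WT replicate 1, Edn2 come from libraries that were also high in oviduct genes, and the part of those genes' source was not tested.

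In young ovary 200H replicate 3 stood apart for 2 neighbouring ligand genes, Ereg at 7.56 CPM (others 2.4 to 2.97) and Btc at 6.28 CPM (others 3.01 to 3.12). Sult1e1 stood apart at very low counts in older ovary, at 0.151 CPM from 2 counts in WT replicate 2, at 0.0903 CPM from 1 count in 200H replicate 2, and at 0.833 CPM from 11 counts in 200M replicate 4, where the others had 0 to 0.11 CPM.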

How the results depend on the processing

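Of 203 values of the 15 counts of called members, 183 stayed within 1.5 times the value reported, and 20 did not. The same holds for sign in the 1064 values of 74 single-gene results, where 76 changed sign, 85 lost a call and 6 gained one. These sign changes fell in 24 results that were called neither as reported nor with the changed sign. The cause of these changes was not tested, beyond what leaving out a library shows by itself. Depth limited 7 of the 10 members, which had fewer than 20 counts in most of the 24 ovary libraries: Sult1e1 in 24, Edn2 in 22, Areg and Has2 in 19, Ptgs2 in 17, Tnfaip6 in 14 and Ptx3 in 13. Small changes in them were not detectable at this depth.

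Replicate numbers are shared between the genotypes, and the deviations of libraries with the same number correlated at -0.648 to 0.45, so the numbers are not taken to pair the mice. With the replicate number as a block, the members called in older ovary 200M against WT went from 1 to 0 (Tnfaip6 at -2.91, adjusted p = 0.0829), those in young pituitary 200M against WT from 0 to 1 (Ptgs2) and those in older pituitary 200M against WT from 0 to 1 (Ptgs2). In young pituitary 200H against WT the count stayed at 1, but Cebpb lost its call (0.41, adjusted p = 0.295) and Ptgs2 gained one. In young pituitary 1 WT library has no number, so under the block only replicates 1 and 2 compared the genotypes. In older pituitary 200M only replicates 1 to 3 did so. These pituitary changes therefore rest on few libraries, and shares over all genes under the block are given for the ovary only. Under the block the sign changed for Ereg in young 200H (-0.12), Cebpb in older 200M (-0.03), Areg and Ereg in older 200H (-0.10 and -0.02), Cebpb between older 200M and 200H (-0.08), and the interaction of Areg (-0.74).

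DESeq2 gave 1 member (Tnfaip6) in older ovary 200H, 1 (Tnfaip6) in the interaction and 0 in young pituitary 200H, where RLE size factors also gave 0. Without the low-count filter there was 1 in young pituitary 200M, 2 in older pituitary 200M and 1 in older hypothalamus 200H (Ptgs2 in each, with Cebpb in older pituitary). In older pituitary Ptgs2 had 3, 22, 11 and 0 counts in WT and 1 count in each 200M library. The share of all genes called without the filter is not given outside the ovary, so these counts are not readable against a background. Over single libraries left out, the count of members called ranged from 0 to 1 in older ovary 200M and in older pituitary 200M (1 without WT replicate 1), and was 0 throughout in young pituitary 200H.

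For single genes against WT, the sign changed with DESeq2 for Ptx3 in young 200M (-0.01), Ereg in young 200H (-0.04), and Areg (-0.02) and Ereg (-0.01) in older 200H. It changed without the low-count filter for Ptx3 in young 200M (-0.01) and Ereg in young 200H (-0.06). With the 3 genotypes fitted together it changed for Ereg in young 200H (-0.01) and for Areg and Ereg in older 200H (both -0.02). Without the libraries high in oviduct genes it changed for Cebpb in older 200M (-0.10) and 200H (-0.03), Ereg in older 200H (-0.78), Ereg (0.13) and Cebpb (-0.07) between older 200M and 200H, and the interactions of Ptgs2 (-0.02) and Ereg (-0.09).

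Over single libraries left out, log2 fold changes in young 200M against WT ranged from -0.21 to 0.29 for Ptx3, -0.45 to 0.01 for Lhcgr and -0.14 to 0.04 for Vcan. In young 200H against WT they ranged from -0.51 to 0.18 for Ereg and -0.12 to 0.38 for Ptx3. In young 200M against 200H they ranged from -0.36 to 0.06 for Btc, -0.08 to 0.45 for Has2, -0.19 to 0.62 for Tnfaip6 and -0.30 to 0.15 for Ptx3. In older 200M against WT they ranged from -0.07 to 0.11 for Btc, -0.30 to 0.23 for Cebpb, -0.60 to 0.01 for Lhcgr and -0.13 to 2.23 for Pgr, the last 2 turning without 200M replicate 3. In older 200H against WT they ranged from -0.84 to 0.77 for Areg, -0.36 to 0.33 for Ereg, -1.80 to 3.82 for Edn2 and -0.08 to 0.15 for Cebpb. In older 200M against 200H they ranged from -0.44 to 0.16 for Ptx3 and -0.33 to 0.18 for Cebpb. The interactions ranged from -1.16 to 1.69 for Ptgs2, -2.44 to 1.16 for Areg, -0.14 to 0.45 for Ereg and -0.05 to 0.46 for Cebpb, with the lowest values of Ptgs2 and Areg without older 200M replicate 3.

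The number of genes called over all genes also moved. The counts of called members were 0 or 1 as reported, so the size of their changes is not compared with it. In young 200M against WT it was 497, and 845 without the filter, 199 with the block and 109 with the 3 genotypes together. In young 200H it was 1, and 75 by DESeq2, 241 without the filter and 0 with the block, and in young 200M against 200H it was 0, and 45 without the filter. In older 200M against WT it was 482, and 1320 by DESeq2, 815 with the 3 genotypes together, 752 without the libraries high in oviduct genes and 62 with the block. In older 200H it was 0, and 21 by DESeq2 and 1 without the filter. In older 200M against 200H it was 288, and 861 by DESeq2, 151 without the libraries high in oviduct genes and 64 with the block. The interaction was called for 43 genes, and for 355 by DESeq2, 332 without those libraries, 123 without the filter and 0 with the block.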
